A study of Homo sapiens with 4 samples.

Results

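The TAL1 core regulatory circuit is the group of transcription factors on which T cell leukemias of the TAL1 class depend. It was followed here through 9 genes, TAL1, LMO1, LMO2, LDB1, GATA3, RUNX1, MYB, TCF3 and TCF12, out of 15231 gene symbols in the deposited table. Members were chosen by gene symbol alone, and 11 of the 16328 deposited rows carried one of these symbols. MYB filled a pair of rows with identical values, which were merged, so that 10 rows remained, 2 of them of RUNX1. The cells were Jurkat, an established human T cell leukemia line in which TAL1 is known to be active. There was 1 library from cells of the Control group, named Control shRNA in the series design, and there were 3 libraries from cells that carried hairpins against SLEAR, a transcript named in the series title as a regulator of apoptosis, or programmed cell death, in lupus. The SLEAR hairpins were delivered with the lentiviral vector pGreenPuro in the presence of polybrene. No time after transduction is given. Whether SLEAR shRNA-1, -2 and -3 are different hairpins or separate cultures is not stated, so a p-value here reflects the spread among these libraries only, and that spread may be technical. No row of the table is named SLEAR (0 rows), so the knockdown itself is not analysed here.

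TAL1 is a basic helix-loop-helix protein that is switched off in normal thymocytes and kept on in many T cell leukemias. It binds E-box DNA only as a dimer with an E protein, of which TCF3 (E2A) and TCF12 (HEB) are the T cell forms, and an LMO protein with LDB1 bridges this dimer to GATA3. RUNX1 and MYB bind the same regulatory regions, and the factors are known to activate their own genes and each other's, which is why the group is called a circuit.

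Promoter sequence is shown for TAL1, at the head of the circuit, and for RUNX1. Of the 2 RUNX1 rows, 1 followed TAL1 most closely among the member rows and the other did not (below). The sequences of both genes come from RefSeq (GRCh38.p14, the build of that table and not the hg19 build of the deposited values). Each is the 250 bases upstream of an annotated start, on the minus strand, 5' to 3'. In the window at chr1:47232336-47232585 the capitals mark 1 E-box (CANNTG), which begins 93 bases before the start, and 2 GATA motifs (GATAA, here on the opposite strand as TTATC), which begin 67 and 35 bases before it.
TAL1, first start: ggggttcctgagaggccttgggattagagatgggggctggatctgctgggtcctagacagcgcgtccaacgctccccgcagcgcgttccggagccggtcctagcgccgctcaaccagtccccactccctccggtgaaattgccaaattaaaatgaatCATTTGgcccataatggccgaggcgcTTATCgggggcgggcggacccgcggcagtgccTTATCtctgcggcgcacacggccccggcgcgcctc
In the window of a second TAL1 start, at chr1:47231716-47231965, the capitals mark 4 RUNX motifs (TGTGGT or TGCGGT).
TAL1, second start: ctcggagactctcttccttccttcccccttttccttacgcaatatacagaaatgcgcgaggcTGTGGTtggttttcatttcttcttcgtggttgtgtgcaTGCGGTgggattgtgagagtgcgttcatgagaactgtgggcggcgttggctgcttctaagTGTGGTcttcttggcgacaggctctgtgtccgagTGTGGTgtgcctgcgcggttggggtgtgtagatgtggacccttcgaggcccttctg
The RUNX1 window at chr21:34888700-34888949 held none of these motifs on either strand and so has no capitals.
RUNX1: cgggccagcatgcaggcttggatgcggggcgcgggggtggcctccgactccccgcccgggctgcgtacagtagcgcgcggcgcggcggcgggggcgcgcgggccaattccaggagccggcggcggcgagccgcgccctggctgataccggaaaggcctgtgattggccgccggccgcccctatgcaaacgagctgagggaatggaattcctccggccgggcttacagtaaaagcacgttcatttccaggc
None of these 3 windows overlaps an exon of GENCODE 29. Of all 35116 promoter windows of this length, 61.8% held an E-box, 20.4% a GATA motif and 16.3% a RUNX motif on either strand. A MYB motif (AACNG, not marked by capitals), which 70.6% of windows held, occurred 2 times in the second TAL1 window and not in the other windows shown. Of the 18 windows found for 8 member genes, 5 held an E-box, 2 a GATA motif, 4 a RUNX motif and 10 a MYB motif. These are letter matches, not measured binding.

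Values are RPM, read numbers scaled to the library total, from reads taken next to the poly(A) tail of transcripts and not divided by transcript length, so levels are compared here within a gene and not between genes. The values of SLEAR shRNA-1, -2 and -3 are always listed in that order. The estimated depth was 4814166 to 8384889 reads per library, with SLEAR shRNA-3 the shallowest. SLEAR shRNA-3 stood apart: 6941 of 16328 rows were at 0 there against 2314 to 2984 in the other libraries. Where both SLEAR shRNA-1 and -2 had 8 to 16 RPM (941 rows), the third library lacked any read in 7.97%. Results are therefore given with and without that library. T cell markers were present but uneven. CD3D was at 1579.9 RPM in Control versus 1590.0, 1679 and 1966 RPM, although CD3G was at 0.239, 0, 0 and 0 RPM. The PTPRC rows were also low, at 0.239, 0.954 and 0.477 RPM in Control. Of the 9 tested T cell marker rows 4 lay above Control in all 3 SLEAR shRNA libraries and 0 lay below. Over all tested rows 17.8% lay above and 28.6% below. Of the marker rows 0 passed, and CD7 was at 2.86 RPM in Control versus 8.51, 8.90 and 16.2 RPM. CD5 was at 39.5 RPM in Control versus 65.8, 61.5 and 33.9 RPM and, in a fit without SLEAR shRNA-3 limited to better-expressed rows (described with TCF12), rose by 0.68 ± 0.20 (SE) on the log2 scale (adjusted p = 0.0116, limma-trend). Of all rows in that fit 7.11% were called higher. The part of CD5 in the results of that fit was not tested. Erythroid markers, the other lineage in which TAL1 acts, summed to 1.46 to 5.61 RPM over the 5 of 9 listed genes with a row, and HBB was at 0.119 RPM in Control and 0 elsewhere. Myeloid markers summed to 0 to 2.62 RPM over 5 of 6 listed genes, and B cell markers to 12.0 to 23.1 RPM over 4 of 6, most of it CD79A. Fibroblast and epithelial markers summed to 0 to 3.72 RPM over 3 of 8 listed genes. The other listed genes had no row, so these sums do not cover them.

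Whether the circuit differed where SLEAR was targeted was tested with limma-trend on log2(RPM + 1). The fit covered the 12350 rows that reached 1 RPM in any library, p-values were adjusted over all of them by Benjamini-Hochberg, and the threshold was 0.05. Of the 10 member rows, 9 were tested and LMO2 was too low. None of the 9 passed (0 of 9, adjusted p = 0.993 for each by limma-trend), and 0 of 9 had an unadjusted p under 0.05, also by limma-voom on estimated reads. Over all rows 0% were called, and 2.68% had an unadjusted p under 0.05. With 1 library against 3, an exact permutation test of a single gene cannot go below p = 0.25. In 4 of the 9 rows, TCF12, LMO1 and both rows of RUNX1, all 3 SLEAR shRNA libraries lay below Control, and in 0 rows did all 3 lie above it. Over all tested rows these shares were 28.6% below and 17.8% above. In bulk RNA, a level per cell and the number of cells with the transcript cannot be told apart. The median log2 difference over the 9 member rows was -0.23, beside -0.11 over all tested rows.

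**Figure D1:**
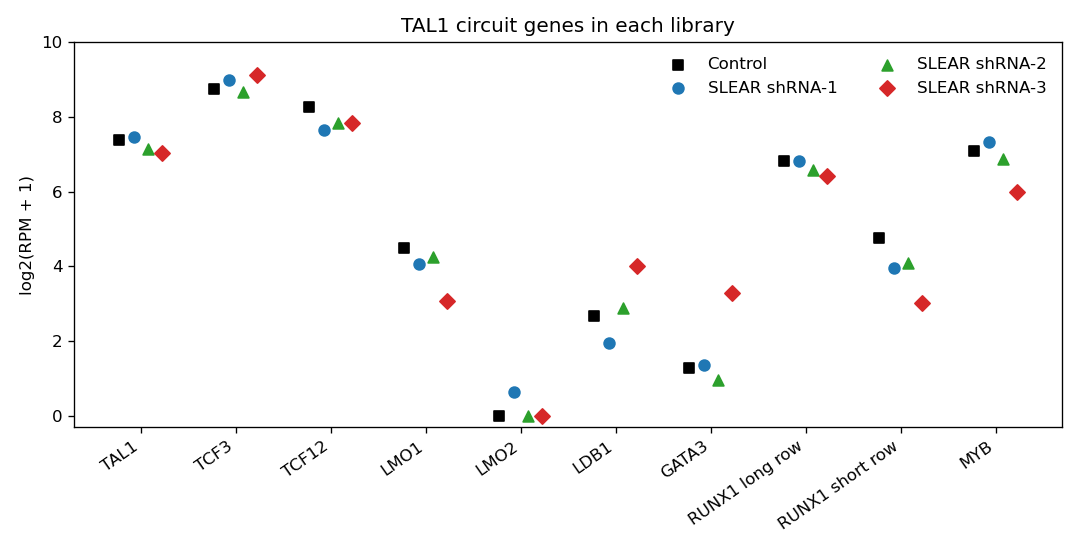
Level of each member row in each library, as log2(RPM + 1), with 1 symbol per library and no averaging. TCF12 lies lower in the 3 SLEAR shRNA libraries (199.8 to 229 RPM) than in Control (307 RPM). The SLEAR shRNA-3 diamond lies apart for MYB, GATA3, LDB1, LMO1 and the short RUNX1 row.

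TAL1 itself, which gives the circuit its name, was at 166 RPM in Control versus 176, 141 and 130.0 RPM with SLEAR shRNA. Control lay within the range of the SLEAR shRNA libraries. The fitted log2 difference was -0.17 ± 0.25 (SE), with a 95% interval of -0.83 to 0.49. It was -0.30 without SLEAR shRNA-1 and -0.08 without SLEAR shRNA-3. The TAL1 value rested on 626 to 1394 reads per library, and counting alone would give a 95% interval of 158 to 175 RPM in Control and 120 to 141 RPM in SLEAR shRNA-3.

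TCF12, one of the E proteins that TAL1 pairs with, showed the most even difference among the members. It was at 307 RPM in Control versus 199.8, 228 and 229 RPM with SLEAR shRNA. Each SLEAR shRNA library was lower than Control, and the 3 lay close together (219 ± 16.7 RPM, SD, n = 3). The log2 difference was -0.49 ± 0.19 (SE), with a 95% interval of -0.99 to 0.02, and it did not pass (adjusted p = 0.993, unadjusted p = 0.0552, limma-trend). The SD of its log2 values in the SLEAR shRNA libraries was 0.112, beside a median of 0.210 for rows of like level. A second fit left out SLEAR shRNA-3 and kept only the 4851 better-expressed rows, those whose log2 values averaged 4 or more over the 4 libraries. In this reduced fit TCF12 fell by 0.52 ± 0.15 (SE) on the log2 scale (adjusted p = 0.00798, limma-trend). It was the only one of the 5 member rows in the reduced fit to pass, and 14.4% of all rows passed there, 7.26% as lower. Without SLEAR shRNA-3 but with all 12350 rows TCF12 did not pass (adjusted p = 0.368). The spread in both of these fits comes from SLEAR shRNA-1 and -2 alone. In the reduced fit the error of a row was set almost wholly by the typical spread of rows of like level. Calls there, for TCF12 and every other row named, therefore rest on that assumed spread more than on the row's own libraries.

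TCF3, the other E protein, lay on both sides of Control. It was at 434 RPM in Control versus 507, 409.6 and 554 RPM with SLEAR shRNA, with Control inside their range. The log2 difference was 0.17 ± 0.24 (SE), with a 95% interval of -0.48 to 0.81, and it was 0.29 without SLEAR shRNA-2 and 0.07 without SLEAR shRNA-3. Within a library the share of TCF12 in the sum of both rows does not depend on how libraries are scaled. It was 41.5% in Control, with an exact binomial 95% interval of 40.2 to 42.7%. In SLEAR shRNA-1 it was 28.3% (27.0 to 29.6%), in SLEAR shRNA-2 it was 35.8% (34.4 to 37.2%) and in SLEAR shRNA-3 it was 29.2% (27.8 to 30.7%). All 3 SLEAR shRNA shares lay below that of Control beyond counting error, and that of SLEAR shRNA-2 lay above the other 2 beyond it as well. Counting error is all that these intervals cover. The share contains the TCF12 row itself, so it is not separate from the lower TCF12 values. How often other pairs of genes show such an order was not tested. TAL1 RPM over the sum of both E proteins was 0.224 in Control and 0.249, 0.221 and 0.166 in SLEAR shRNA-1, -2 and -3, so Control lay within the range there.

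**Figure D2:**
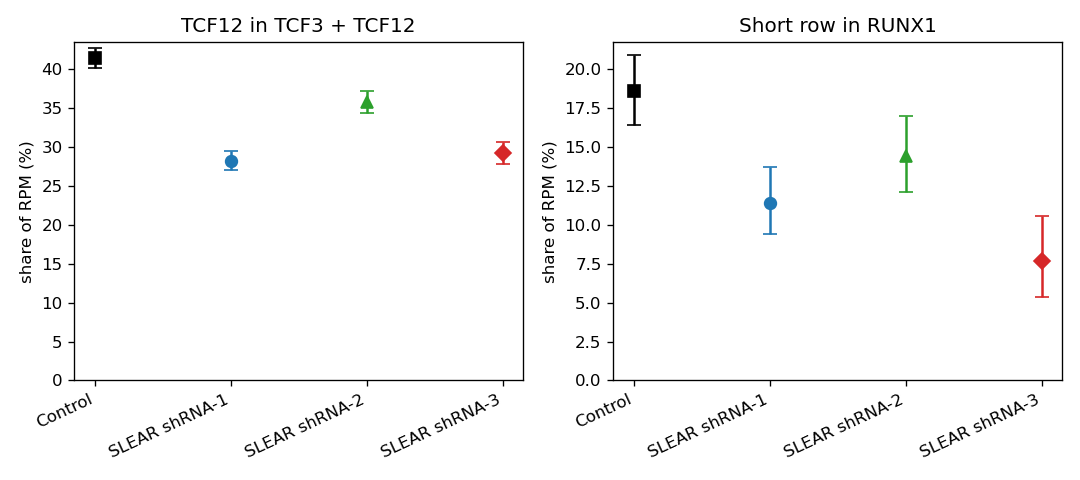
Left, TCF12 as a percent of the summed RPM of TCF3 and TCF12. Right, the short RUNX1 row as a percent of all RUNX1 RPM. Points are single libraries and bars exact binomial 95% intervals, which cover counting error only. Control (41.5% and 18.6%) is the highest point in both panels.

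Of the bridging proteins, LMO1, a LIM-only protein that links the TAL1 dimer to LDB1, was at 21.3 RPM in Control versus 15.6, 18.1 and 7.48 RPM with SLEAR shRNA. All 3 lay below Control, with SLEAR shRNA-3 the lowest. Its log2 difference was -0.69 ± 0.64 (SE) with all libraries and -0.33 without SLEAR shRNA-3, and neither passed (adjusted p = 0.993 and 0.526, limma-trend). LMO2, its paralog and the form used in blood stem cells, was at 0 RPM in Control, SLEAR shRNA-2 and SLEAR shRNA-3 and at 0.568 RPM, or 4 reads, in SLEAR shRNA-1. A count of 0 still allows 3 reads, a level of 0.358 RPM for Control, 0.399 RPM in SLEAR shRNA-2 and 0.623 RPM in SLEAR shRNA-3. Of these 2 genes LMO1 alone was above this limit in every library.

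LDB1, the scaffold that holds the LMO protein and can join distant DNA sites by pairing with itself, was at 5.37 RPM in Control versus 2.84, 6.38 and 15.2 RPM with SLEAR shRNA. The SLEAR shRNA libraries lay on both sides of Control. Over the 3 libraries the log2 difference was 0.28 ± 1.02 (SE) and turned to -0.26 without SLEAR shRNA-3. These values rest on 20 to 73 reads, and the counting interval in SLEAR shRNA-3 (11.9 to 19.1 RPM) lay above that in Control (3.92 to 7.18 RPM).

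GATA3, the zinc finger factor of T cell commitment, had 7 to 42 reads in its row. It was at 1.43 RPM in Control versus 1.56, 0.930 and 8.72 RPM with SLEAR shRNA. SLEAR shRNA-3 was the high library and the other SLEAR shRNA libraries were near Control. The fitted difference in log2 was 0.58 ± 1.18 (SE), with a 95% interval of -2.57 to 3.73, and it turned to -0.13 without SLEAR shRNA-3. In SLEAR shRNA-3 both GATA3 and LDB1 were higher than in the other 3 libraries, although this library had the most rows at 0.

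RUNX1, the core-binding factor that occupies many TAL1-bound regions, was split over 2 rows. The row of NM_001001890 and NM_001754, which encode the long forms with the activation domain (called the long row), was at 113 RPM in Control versus 112, 95.4 and 84.7 RPM with SLEAR shRNA. All 3 lay below Control, SLEAR shRNA-1 by less than counting error. The log2 difference was -0.23 ± 0.25 (SE) with all libraries and -0.13 without SLEAR shRNA-3, and neither passed (adjusted p = 0.993 and 0.689, limma-trend). The row of NM_001122607, the short form RUNX1a that keeps the DNA-binding domain and lacks the activation domain (called the short row), was at 25.9 RPM in Control and at 14.5, 16.1 and 7.06 RPM. Again all 3 lay below Control, here with counting intervals that did not overlap that of Control (22.6 to 29.6 RPM against at most 19.2 RPM). The log2 difference was -1.06 ± 0.62 (SE) with all libraries and -0.73 without SLEAR shRNA-3, and neither passed (adjusted p = 0.993 and 0.368, limma-trend).

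The short row made up 18.6% of RUNX1 RPM in Control, with an exact binomial 95% interval of 16.4 to 20.9%. In SLEAR shRNA-1 it made up 11.4% (9.42 to 13.7%), in SLEAR shRNA-2 it made up 14.4% (12.1 to 17.0%) and in SLEAR shRNA-3 it made up 7.69% (5.39 to 10.6%). Control was the highest of the 4 libraries, but the intervals of Control and SLEAR shRNA-2 overlapped. Among 476 genes with 2 tested rows, the share of the lesser row was lower than Control in all 3 SLEAR shRNA libraries in 27.7% and higher in 14.7%, so such an order is frequent in this table. The sources used here do not give how the authors divided reads between rows of a gene. With both rows summed, RUNX1 was at 139 RPM in Control and at 127, 112 and 91.8 RPM, a log2 difference of -0.35 ± 0.26 (SE) that did not pass (adjusted p = 0.994, limma-trend).

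MYB, a factor of blood progenitors that T cell leukemias depend on, had the widest spread for its level among the members. Each of its rows was at 136 RPM in Control versus 161, 117 and 62.2 RPM with SLEAR shRNA. Control lay within the range, and SLEAR shRNA-3 was far below the others. In SLEAR shRNA-1 and -3 the row value corresponded to 1137.5 and 299.5 reads, as equal sharing of common reads between the rows would give, and the sum of both rows was 271.7 RPM in Control and 323, 235 and 124 RPM. The log2 difference of a row was -0.36 ± 0.57 (SE) with all libraries and 0.02 ± 0.17 (SE) in the reduced fit, and neither passed (adjusted p = 0.993 and 0.959, limma-trend). Without SLEAR shRNA-1 it was -0.66. Of 804 rows of like level, 4.23% varied more between the 3 SLEAR shRNA libraries than MYB did.

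**Figure D3:**
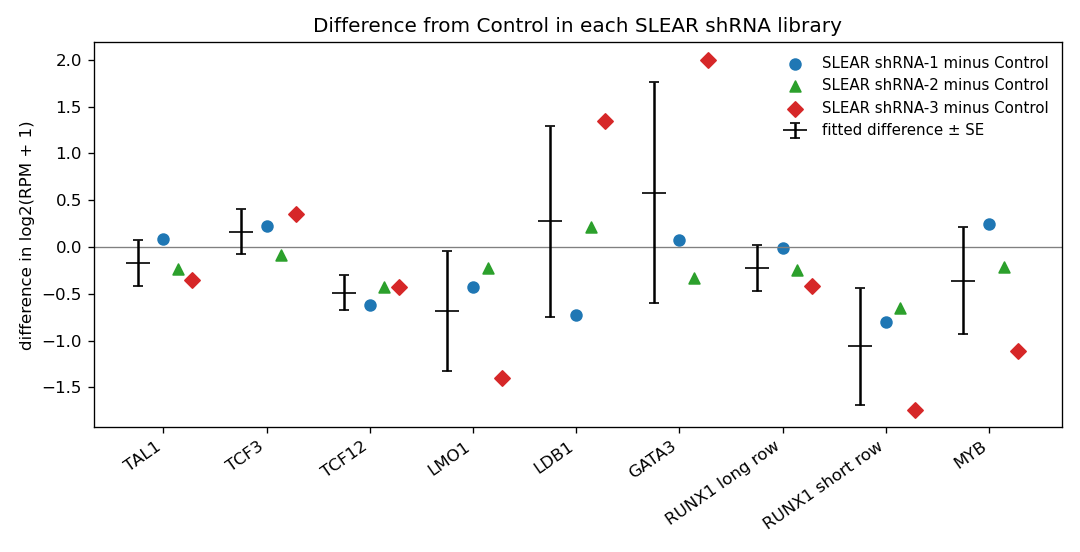
Difference from Control in log2(RPM + 1) for each tested member row. Coloured symbols are single SLEAR shRNA libraries against the 1 Control library, and the black mark is the fitted difference ± SE over the 3. The TCF12 symbols lie together at -0.62, -0.43 and -0.42, and those of GATA3, LDB1 and MYB are spread, with SLEAR shRNA-3 at 2.00, 1.34 and -1.11.

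The profiles of the members over the 4 libraries were compared by the Euclidean distance between their log2(RPM + 1) values, each centred on its own mean, as a description of 4 points that share 1 Control. The closest pair of different members was TAL1 and the long row of RUNX1, at a distance of 0.0801. Of 4850 other better-expressed rows, the long RUNX1 row was the 9th nearest to TAL1. The short RUNX1 row was at 1.03 from TAL1, farther than TCF3 (0.538), TCF12 (0.548), MYB (0.727) and LMO1 (0.87). The nearest 2 were FAM193B, at 79.2 RPM in Control versus 83.4, 68.8 and 64.0 RPM with SLEAR shRNA, and DTX3L, a ubiquitin ligase, at distances of 0.0482 and 0.0542. The short RUNX1 row and LMO1 were the next closest pair of different members, at 0.333, both with their lowest value in SLEAR shRNA-3. For the long RUNX1 row the nearest were TMEM98, a membrane protein, and RAB8A, a small GTPase of vesicle transport, at 0.0212 and 0.0351. For TCF12 they were AKAP11, an anchor of protein kinase A, and GID8, at 0.0189 and 0.0621, with AKAP11 at 56.8 RPM in Control versus 36.9, 42.7 and 42.8 RPM. For TCF3 they were RABEP2 and ZNF671, at 0.0338 and 0.0373, and for MYB CCT6P1 and LOC100996579, at 0.0609 and 0.0622. CCT6P1 is a pseudogene, so its reads are uncertain.

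The genes around the circuit were read from the same fit, and 0 rows of any list passed by limma-trend, beside an unadjusted p under 0.05 for 1 target (ALDH1A2) and 1 row of the other T lineage and leukemia factors (ERG). Genes known as activated by the circuit in T cell leukemia had 10 tested rows. Of these, 2 lay above Control in all 3 SLEAR shRNA libraries and 1 below, beside 17.8% and 28.6% over all tested rows. The median log2 difference of this list was -0.25, beside -0.11 over all rows. Over the better-expressed rows, 6 of them in this list, the median was -0.02. ALDH1A2, the enzyme that makes retinoic acid and a target that TAL1 and LMO proteins switch on in leukemic T cells, was at 717 RPM in Control versus 1017, 1088 and 1114 RPM with SLEAR shRNA. All 3 lay above Control and close together (1073 ± 49.8 RPM, SD, n = 3). Its log2 difference was 0.58 ± 0.19 (SE) and did not pass with all libraries (adjusted p = 0.993, unadjusted p = 0.0311, limma-trend). In the reduced fit ALDH1A2 rose by 0.55 ± 0.12 (SE) on the log2 scale (adjusted p = 0.000331, limma-trend, 7.11% of rows called higher there).

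Of the other targets MYC alone also lay above Control in all 3 libraries, at 5.84 RPM against 7.94, 11.4 and 12.0 RPM. TRIB2, a pseudokinase of leukemic cells, was at 112 RPM in Control and at 80.0, 69.9 and 119 RPM, so that it fell in the reduced fit (log2 difference -0.57 ± 0.18 (SE), adjusted p = 0.0193, limma-trend) and was above Control in SLEAR shRNA-3. Of all rows in the reduced fit 7.26% were called lower. ARID5B, which TAL1 activates and which in turn acts on MYC, was at 42.8 RPM against 33.5, 23.8 and 47.4 RPM. Like TRIB2, it was below Control in SLEAR shRNA-1 and -2 and above it in SLEAR shRNA-3. STAT5A, a cytokine signal factor, did the same, at 46.6 RPM against 24.4, 37.5 and 61.5 RPM. Neither passed in either fit. TSPAN7, a surface protein of T cell leukemia, was the 1 target below Control in all 3 libraries, at 222 RPM against 215, 169.7 and 184 RPM.

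**Figure D4:**
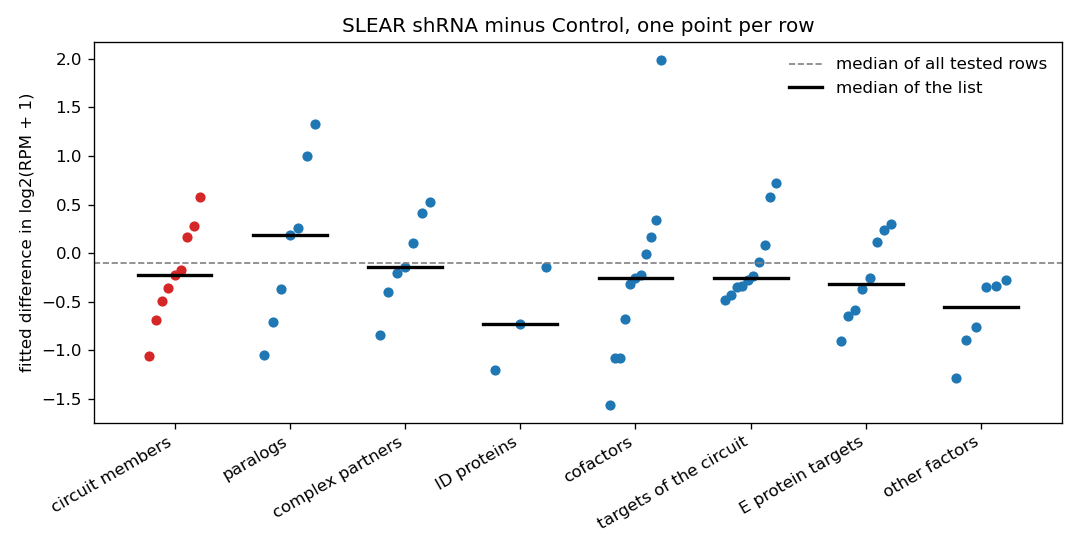
Fitted log2 difference, SLEAR shRNA minus Control, for each tested row of the circuit (red) and of the lists around it (blue), sorted within a list. Black bars are list medians and the dashed line is the median of all tested rows (-0.11). No point passed the test, and each list other than the ID proteins and the other factors has points on both sides of 0.

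Of 12 listed paralogs that could stand in for a member, 7 had a row. TAL2, LMO3, LDB2, TCF4 and GATA1 had none, so their levels are not known here. LYL1, the closest relative of TAL1 in T cells, was at 0 RPM in Control versus 0.993, 0.133 and 6.02 RPM with SLEAR shRNA, LMO4 was at 4.41 RPM against 1.56, 1.06 and 5.82 RPM, and GATA2 was at 0.133 RPM in SLEAR shRNA-2 and 0 elsewhere. RUNX3, a RUNX factor of mature T cells, was at 21.3 RPM against 29.4, 20.9 and 23.9 RPM, and MYBL2, a cell cycle relative of MYB, at 79.7 RPM against 100.6, 103 and 84.1 RPM. RUNX2 had a low row at 1.496 RPM against 0.411, 0.256 and 0 RPM and a second at 1.91 RPM against 7.66, 6.38 and 2.08 RPM. Of the 7 tested paralog rows, 3 lay above Control in all 3 libraries and 1 below, beside 17.8% and 28.6% over all tested rows.

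Proteins that stabilise the complex or pair with its members had 7 tested rows. Of these, 2 lay above and 2 below Control in all 3 libraries, beside 17.8% and 28.6% over all tested rows. The SSBP proteins, which bind LDB1 and protect it from breakdown, lay on opposite sides of Control. SSBP4 was at 90.4 RPM in Control and at 126, 114 and 122 RPM, a log2 difference of 0.41 ± 0.19 (SE). SSBP3 was at 311 RPM against 282, 250.4 and 185 RPM, a log2 difference of -0.40 ± 0.29 (SE). CBFA2T2, a corepressor that E proteins recruit, was at 79.0 RPM against 71.6, 47.6 and 24.1 RPM, and CBFB, the partner that RUNX1 needs for DNA binding, at 263 RPM against 298, 233 and 172 RPM. None of the 4 passed (adjusted p = 0.993 for each, limma-trend).

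The ID proteins, which take E proteins away from DNA, had 3 tested rows. ID1 was at 336 RPM in Control and at 365, 365 and 210.4 RPM, ID3 at 58.9 RPM against 49.8, 40.8 and 7.27 RPM, and ID2 at 5.49 RPM against 6.38, 7.04 and 0 RPM. For all 3 genes the lowest value was that of SLEAR shRNA-3. Genes that E proteins activate in thymocytes had 8 tested rows. In all 3 libraries 1 lay above and 0 below Control, beside 17.8% and 28.6% over all tested rows. PTCRA, the pre-T cell receptor chain, was at 5.72 RPM against 7.09, 7.58 and 1.04 RPM, RAG1 at 6.56 RPM against 8.23, 12.2 and 5.61 RPM, RAG2 at 3.22 RPM against 3.12, 3.72 and 0 RPM, and GFI1 at 12.3 RPM against 13.3, 16.6 and 14.1 RPM. NOTCH1, a receptor that drives T cell fate, was at 61.2 RPM against 68.2, 55.7 and 8.31 RPM.

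Coactivators and corepressors had 11 tested rows. In all 3 libraries 3 lay below Control and 1 above, beside 28.6% and 17.8% over all tested rows. EP300, an acetyltransferase that the circuit recruits, was at 528 RPM in Control versus 392, 414 and 219 RPM. All 3 lay below Control. Its log2 difference was -0.68 ± 0.43 (SE) with all libraries, which did not pass (adjusted p = 0.993, limma-trend), and it fell by 0.39 ± 0.14 (SE) in the reduced fit (adjusted p = 0.0342, limma-trend). Of all rows in the reduced fit 7.26% were called lower. CREBBP, the paralog of EP300, was at 38.8 RPM against 39.6, 37.1 and 3.32 RPM. HDAC2, a histone deacetylase, had 4.05 RPM in Control versus 2.55, 0.399 and 0 RPM, with its highest value in Control. The other T lineage and leukemia factors had 6 tested rows. Of these, 4 lay below and 0 above Control in all 3 libraries, beside 28.6% and 17.8% over all tested rows. BCL11B, a factor of T cell identity, was at 153 RPM against 128, 111 and 122 RPM. LEF1 was at 72.6 RPM against 61.4, 42.7 and 71.7 RPM, and a low row of ERG at 1.43 RPM against 0, 0 and 0 RPM. TCF7, a factor of T cell development that pairs with beta-catenin, was at 1490.3 RPM against 1471, 1321 and 354 RPM, with SLEAR shRNA-3 far below the rest. TLX1, HHEX and NKX2-1, factors seen in other classes of T cell leukemia, were each at 0 RPM in 3 of the 4 libraries and at 0.399, 0.142 and 0.709 RPM in the fourth.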

How the data were processed

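Polyadenylated RNA from Jurkat cells was sequenced by MAPS, a multiplexed 3' end method, on an Illumina HiSeq instrument, per the labels' protocols. The authors deposited RPM values for each transcript row and library. Per the submitters' processing notes FastQC, Bowtie2, SAMtools and hg19 were used. The sources used here do not give how reads were assigned to rows.

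Rows that averaged 1 RPM or more and repeated another row's values in all libraries were merged with it (177 removed, 16151 left). The deposited values were RPM and not counts, so the main test used log2 RPM and not a count model. Reads per library were estimated from the RPM worth of 1 read, and 96.4 to 96.8% of values above 0 were whole reads within 0.05. These estimated reads were used only for limma-voom, an alternative, and for counting intervals, which cover counting error only. The protocol names no molecular identifiers. limma 3.58.1 in R 4.3.3 was run on log2(RPM + 1), which understates the change of low rows. Only the 3 SLEAR shRNA libraries give a residual spread, and Control was assumed to vary like them. The test was tested on simulated data, where with all libraries it called some of the changes under noise set by level alone and none under noise specific to each row, so a row that did not pass is not shown to be unchanged. Set up as in the reduced fit, it called 97% of 2-fold changes under noise set by level alone. Under noise specific to each row it called 0% of 2-fold and 29% of 4-fold changes. Some unchanged rows were called under both kinds of noise. The members, lists, tests and alternatives were chosen with earlier results of these data known. Text names all member rows, for each list around the circuit the 3 rows with the smallest p, further list members for context, and the 2 nearest profiles of each member row whose log2 values averaged 4 or more. The further list members were chosen after their values were seen, and 1 row that the rule picks is not reported here.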

Additional observations from a re-analysis of the deposited data

How the results depend on the processing

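Under 13 alternatives (pseudocounts of 0.1 and 5, other filters, other scalings, array weights, limma-voom, summed rows, each SLEAR shRNA library left out, and SLEAR shRNA-3 left out together with a minimum mean log2 value of 4) the number of member rows called was 0, except for 1, TCF12, under the last. There 345 rows of the whole table were higher and 352 lower, against 0 and 0 with all libraries and rows. With no filter on low values 1 row was higher and 376 lower, none of them a member. Leaving out 1 SLEAR shRNA library in turn, with all 12350 rows, gave 0 rows called each time. Of the member rows, TAL1, TCF3, TCF12, LMO1 and both RUNX1 rows kept their sign under every alternative in which they were tested. GATA3 and LDB1 turned with array weights and without SLEAR shRNA-3, and MYB without SLEAR shRNA-3 with either filter; the cause was not tested. The TCF12 difference ranged from -0.52 to -0.42 on the log2 scale and that of the short RUNX1 row from -1.27 to -0.73. The smallest adjusted p of a member with all libraries and limma-trend was 0.301, with array weights. In the fit without SLEAR shRNA-3 the spread rests on 1 pair of libraries. GATA3 and LDB1 rest on 7 to 73 reads per library and LMO2 on 0 to 4. No paired analysis was possible because Control is 1 library with no number of its own in the labels.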

Other observations

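Other repeated rows also lay midway between whole reads, as the MYB rows did in SLEAR shRNA-1 and -3. Of 177 rows that repeated the values of another row, 20.3% lay 0.5 reads from a whole number (within 0.05) in Control, and 24.3%, 20.3% and 18.1% did in SLEAR shRNA-1, -2 and -3. Whether reads were shared between such rows was not tested. Summing the MYB rows gave a log2 difference of -0.36.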
